A study of Mus musculus with 9 samples.

Results

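The expression of 10 adipogenic transcription factors was compared in cultured mouse adipose-derived stem cells (ASCs) from 3 fat depots. The members were the rows of the gene count table with the names Pparg, Cebpa, Cebpb, Cebpd, Zfp423, Zfp521, Ebf1, Ebf2, Klf15 and Prdm16, which makes 10 of 54532 genes, and all 10 were among the 16526 genes with enough reads for testing. Sub-ASCs came from subcutaneous, Ab-ASCs from abdominal and PVASCs from perivascular fat of C57BL/6 mice. The cells grew in stem cell medium with leukemia inhibitory factor and FGF. The paper gives a range of passages at harvest but not the passage of each group. The labels name no treatment, transgene or deletion and mention no adipogenic medium. Each group had 3 libraries of bulk RNA, 9 in all, with 23781019 to 26872579 counted reads in Sub-ASCs, 20524173 to 23832828 in Ab-ASCs and 27136829 to 29881036 in PVASCs. Neither the age and sex of the mice nor whether libraries came from separate mice or cultures is given in the labels, so p-values measure the spread between these libraries, which may be technical. No sorting of the cultures before sequencing is described.

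As background, adipogenesis is driven by a cascade of transcription factors. C/EBPβ and C/EBPδ, encoded by Cebpb and Cebpd, are induced first and turn on Pparg and Cebpa, whose products maintain each other and activate the genes of the mature adipocyte, with help from factors such as KLF15. Ahead of this cascade, ZFP423 and the EBF proteins mark commitment to the fat lineage, ZFP521 opposes ZFP423 and EBF1, and EBF2 and PRDM16 are known for the brown and beige programme.

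In the GRCm38 build, all 10 members are annotated as protein-coding in the count table. Pparg lies at chr6:115360951-115490399 and Klf15 at chr6:90462576-90475238, both on the plus strand. The C/EBP genes are short and lie on the plus strand at chr7:35119293-35121928 (Cebpa), chr2:167688915-167690418 (Cebpb) and chr16:15887286-15891031 (Cebpd). Ebf1 lies at chr11:44617317-45008091 and Ebf2 at chr14:67233292-67430918, on the plus strand. On the minus strand are Zfp423 at chr8:87661810-87959595, Zfp521 at chr18:13687013-13972733 and Prdm16 at chr4:154316125-154636873. Genes on the opposite strand overlap the spans of some of them. Whether the counting used strand is not stated and overlap of exons was not examined, so whether such pairs shared reads is not known. Tmem189 overlaps Cebpb and had 895 to 1097 reads per library, Spidr overlaps Cebpd and had 518 to 966, Gm45091 overlaps Cebpa and had 1 to 18, and the genes overlapping other members had at most 9.

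Among the 3 groups, 10 of 10 members differed by edgeR at an adjusted p under 0.05, where 84.6% of all tested genes did. In Ab-ASCs, 10 of 10 members were lower than in Sub-ASCs and none was higher (all genes: 38.3% lower, 37% higher and 75.3% called in either direction). In PVASCs, 9 of 10 were lower than in Sub-ASCs, with Prdm16 not called and none higher (all genes: 35.7% lower, 34.7% higher, 70.4% in either direction). PVASCs and Ab-ASCs differed in both directions, with Pparg, Cebpd, Zfp423, Zfp521, Klf15 and Prdm16 higher in PVASCs, Cebpa, Cebpb and Ebf1 lower, and Ebf2 not called (all genes: 24.7% higher, 32.1% lower, 56.9% in either direction). The 3 comparisons share libraries and are not independent of each other. Leaving out 1 library moved the members called to between 8 and 10 against Sub-ASCs, always through Ebf2 or Prdm16, and their values without each such library stand with those genes.

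The sizes of the differences are given as log2 fold changes of CPM (counts relative to library size), scaled to TMM library sizes. Over the members the median was -1.22 for PVASCs against Sub-ASCs, where the median over all tested genes was -0.01, and -1.45 for Ab-ASCs against Sub-ASCs, where it was -0.03. For PVASCs against Ab-ASCs the members had a median of 0.50 and all genes -0.06. Changes of at least 1 on the log2 scale that also passed the test were found in 6 members for PVASCs against Sub-ASCs (32.2% of all genes), 7 for Ab-ASCs against Sub-ASCs (37.8%) and 2 for PVASCs against Ab-ASCs (15.4%). The CPM ranges of the groups did not overlap in 9 members for PVASCs and Sub-ASCs (77.3% of all genes), in 9 for PVASCs and Ab-ASCs (63.9%) and in 10 for Ab-ASCs and Sub-ASCs (76.5%). In bulk RNA, fewer cells that express a factor and less of its RNA per cell cannot be told apart.

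**Figure D1:**
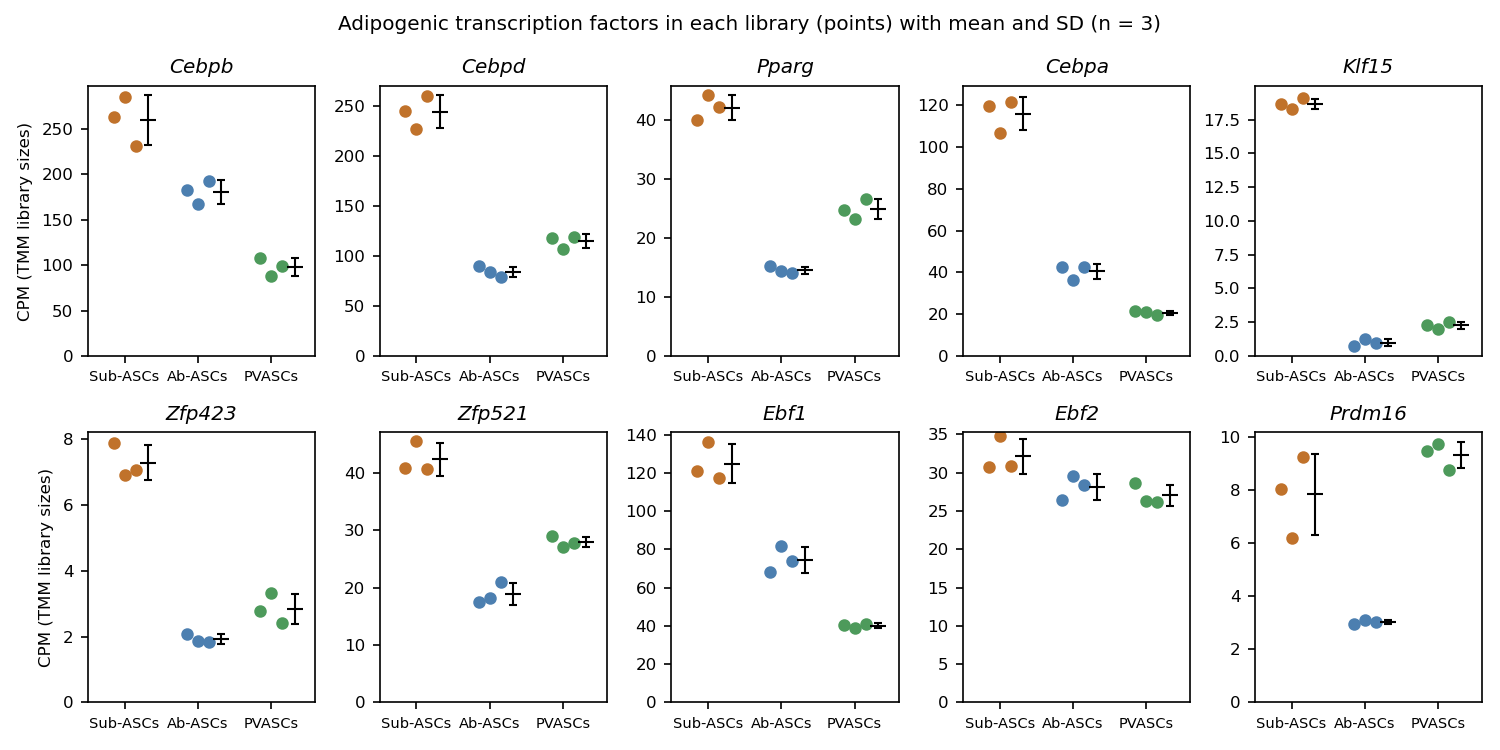
CPM of the 10 members on TMM library sizes (y axes, each from 0) in Sub-ASCs, Ab-ASCs and PVASCs (x axis), with a point per library and the mean and SD of 3 libraries beside them. Sub-ASCs had the highest mean for every member but Prdm16, whose PVASC mean was 9.34 against 7.85 in Sub-ASCs, and the groups of Ebf2 lay closest together.

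Several sets of cell type and state markers moved between the groups as well. The summed CPM of 10 proliferation genes was 134 to 139 in Sub-ASCs, 889 to 946 in Ab-ASCs and 843 to 856 in PVASCs, with 10 of 10 higher in each of the latter than in Sub-ASCs. Interferon response genes went the other way, at 1890 to 1970, 98.4 to 113 and 98.4 to 99.7 in the same order, with 10 of 10 lower. Smooth muscle and pericyte markers summed to 70.5 to 76.9, 4460 to 5530 and 2760 to 2910 (higher than in Sub-ASCs in 6 of 7 for Ab-ASCs and 7 of 7 for PVASCs). Acta2 made most of these sums, with 52.7, 4440 and 2510 CPM, whereas Rgs5 had 6.27, 0.752 and 22.6 and was lower in Ab-ASCs than in Sub-ASCs. Mesothelial markers summed to 2.75 to 2.94, 122 to 131 and 47.9 to 49.7 (higher than in Sub-ASCs in 8 of 8 and 7 of 8). Endothelial markers summed to 178 to 193, 89.1 to 91.3 and 761 to 775 (1 higher and 5 lower of 7 in Ab-ASCs, 6 higher and 1 lower in PVASCs), and Schwann and neuronal markers to 19.8 to 20.4, 39.6 to 48.1 and 122 to 125 (2 higher and 3 lower of 5 tested in Ab-ASCs, 4 higher in PVASCs). Fibroblast and stromal markers summed to 29400 to 30100, 11600 to 12000 and 7400 to 7710 (6 of 8 lower and 2 higher in each group), and preadipocyte markers to 6810 to 6900, 1540 to 1570 and 1610 to 1650 (8 of 10 lower and 1 higher in Ab-ASCs, 7 lower and 2 higher in PVASCs). Of 8 macrophage and leukocyte markers, 6 were lower and 2 higher than in Sub-ASCs in each group (median log2 fold change -0.61 in Ab-ASCs and -1.01 in PVASCs), although their sums of 290 to 294, 329 to 419 and 316 to 325 went up with Lyz2, which had 163, 271 and 249 CPM. Epithelial markers summed to 0.275 to 0.572, 4.1 to 5.42 and 0.136 to 0.336, with both tested genes, Cdh1 and Cldn4, higher in Ab-ASCs than in either other group and Krt5 at no more than 1 read. Pdgfra, a marker of mesenchymal progenitors held by both the fibroblast and the preadipocyte list, had 2710 CPM in Sub-ASCs, 443 in Ab-ASCs and 332 in PVASCs, whereas Thy1 and Eng of the fibroblast list and Cd24a and F3 of the preadipocyte list were higher in PVASCs than in Sub-ASCs (Cd24a at 153 against 6.71 CPM). The part of these sets in the differences of the members was not tested. Replicates spread most in Ab-ASCs, whose common coefficient of variation by edgeR was 12.4%, against 5.7% for Sub-ASCs and 3.85% for PVASCs.

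Cebpb and Cebpd, the early inducers of the cascade, were the most abundant members per length in each group, and their order of depots differed. Cebpb CPM was 263, 286 and 231 in the Sub-ASC libraries, 183, 167 and 192 in Ab-ASCs and 108, 87.8 and 98.8 in PVASCs. The 3 groups formed separate steps, from Sub-ASCs at the top to PVASCs at the bottom. Cebpb was 2.65-fold lower in PVASCs than in Sub-ASCs (log2 fold change -1.41, SE 0.0925, adjusted p = 2.9e-08) and 1.84-fold lower than in Ab-ASCs (-0.88, SE 0.092, adjusted p = 7.17e-06). The step from Sub-ASCs to Ab-ASCs was the smallest, at 1.44-fold (-0.53, SE 0.0909, adjusted p = 0.0002). Cebpd CPM was 245, 227 and 260.2 in Sub-ASCs, 89.5, 83.8 and 79.4 in Ab-ASCs and 118, 107 and 119 in PVASCs. Here Ab-ASCs were lowest and PVASCs lay between, with no overlap. Cebpd was 2.9-fold lower in Ab-ASCs than in Sub-ASCs (SE 0.0711 on the log2 scale, adjusted p = 8.97e-10), 2.13-fold lower in PVASCs than in Sub-ASCs (adjusted p = 2.23e-08) and 1.36-fold higher in PVASCs than in Ab-ASCs (0.45, SE 0.0703, adjusted p = 0.000201).

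Pparg encodes the nuclear receptor PPARγ, without which fat cells do not form. Pparg CPM was 39.9, 44.2 and 42.2 in Sub-ASCs, 15.2, 14.4 and 14 in Ab-ASCs and 24.7, 23.3 and 26.6 in PVASCs. PVASCs lay between the other groups and no library crossed into another group's range. Against Sub-ASCs, Pparg was 2.9-fold lower in Ab-ASCs (adjusted p = 1.61e-09) and 1.69-fold lower in PVASCs (log2 fold change -0.76, SE 0.0706, adjusted p = 8.28e-07). PVASCs exceeded Ab-ASCs by 1.71-fold (0.77, SE 0.0761, adjusted p = 4.18e-06).

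Cebpa, whose product C/EBPα sustains the adipocyte state together with PPARγ, was ordered differently. Cebpa CPM was 120, 107 and 122 in Sub-ASCs, 42.4, 36.3 and 42.8 in Ab-ASCs and 21.5, 20.9 and 19.6 in PVASCs. PVASCs were lowest and again no groups overlapped. The gene was 5.62-fold lower in PVASCs than in Sub-ASCs (log2 fold change -2.49, SE 0.0815, adjusted p = 3.34e-11), 2.87-fold lower in Ab-ASCs than in Sub-ASCs (-1.52, SE 0.0788, adjusted p = 2.67e-09) and 1.96-fold lower in PVASCs than in Ab-ASCs (-0.97, SE 0.0816, adjusted p = 1.04e-06). Thus Pparg and Cebpa, both lower than in Sub-ASCs, took opposite orders between Ab-ASCs and PVASCs.

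RefSeq promoter sequences of GRCm38.p6, each running from 250 bases before to 50 bases after a transcription start, were matched by symbol for 7 of 10 members (Pparg, Cebpa, Cebpb, Zfp423, Ebf1, Klf15 and Prdm16). Both strands were searched for TATAAA (the TATA box, in 13.6% of 32851 promoters), CCAAT (37.4%), GGGCGG (the GC box, 35.7%), TGACG (part of the CREB site, 20.8%), CACGTG (the E-box, 7.15%), TTGCNNAA (the C/EBP motif, 10.8%), TTCNNNGAA (the STAT motif, 8.3%) and AGAACA (part of the glucocorticoid receptor site, 19.0%). Matches are in capitals and only describe the letters. The promoters of Pparg and Cebpa are shown because these genes had opposite orders in Ab-ASCs and PVASCs. Pparg has entries for 3 starts, and its counts pool them. The Pparg promoter at chr6:115360894-115361193 holds 1 GC box, read on the opposite strand, whereas the one at chr6:115421816-115422115 holds 2 CCAAT and 2 C/EBP motifs. A Pparg promoter between them, at chr6:115362099-115362398, holds 1 TATA box, 1 CCAAT and 2 GC boxes. The Cebpa promoter at chr7:35119043-35119342 holds 1 TATA box. These promoters lie on the plus strand.
Pparg, upstream start: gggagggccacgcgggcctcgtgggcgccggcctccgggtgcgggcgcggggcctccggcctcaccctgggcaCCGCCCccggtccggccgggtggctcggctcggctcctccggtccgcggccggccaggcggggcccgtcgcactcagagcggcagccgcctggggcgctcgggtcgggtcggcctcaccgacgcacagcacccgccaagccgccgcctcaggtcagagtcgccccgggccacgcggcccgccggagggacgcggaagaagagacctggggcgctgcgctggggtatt
Pparg, middle start: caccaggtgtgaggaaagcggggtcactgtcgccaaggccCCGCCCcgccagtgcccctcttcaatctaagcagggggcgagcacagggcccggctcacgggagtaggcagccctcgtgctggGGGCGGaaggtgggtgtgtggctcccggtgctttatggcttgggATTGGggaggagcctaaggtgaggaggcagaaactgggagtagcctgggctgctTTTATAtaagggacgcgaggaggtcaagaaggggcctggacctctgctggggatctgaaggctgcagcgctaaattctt
Pparg, downstream start: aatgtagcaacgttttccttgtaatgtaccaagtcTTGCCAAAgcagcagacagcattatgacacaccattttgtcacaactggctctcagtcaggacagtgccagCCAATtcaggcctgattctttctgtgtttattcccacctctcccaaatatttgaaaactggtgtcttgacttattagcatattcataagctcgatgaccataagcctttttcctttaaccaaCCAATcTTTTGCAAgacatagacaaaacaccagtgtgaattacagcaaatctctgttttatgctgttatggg
Cebpa: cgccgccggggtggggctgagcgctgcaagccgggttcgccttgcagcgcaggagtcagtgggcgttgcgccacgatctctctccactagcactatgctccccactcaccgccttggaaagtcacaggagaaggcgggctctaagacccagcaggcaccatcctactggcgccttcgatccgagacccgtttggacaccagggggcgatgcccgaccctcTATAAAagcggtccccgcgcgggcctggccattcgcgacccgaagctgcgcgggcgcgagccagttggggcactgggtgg

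Klf15, a Krüppel-like factor induced in adipogenesis and by glucocorticoids, had the widest differences from Sub-ASCs among the members. Klf15 CPM was 18.6, 18.3 and 19.1 in Sub-ASCs, 0.752, 1.25 and 0.981 in Ab-ASCs and 2.32, 2.0 and 2.51 in PVASCs. Sub-ASCs stood far above both other groups, and the Ab-ASC libraries held 14, 28 and 22 reads of it. Klf15 was 18.5-fold lower in Ab-ASCs than in Sub-ASCs (log2 fold change -4.21, 95% interval -4.53 to -3.89, adjusted p = 5.66e-11) and 8.16-fold lower in PVASCs (-3.03, interval -3.29 to -2.77, adjusted p = 1.85e-10). Between the lower groups, PVASCs exceeded Ab-ASCs by 2.26-fold (1.18, interval 0.78 to 1.58, adjusted p = 0.000185). The Klf15 promoter, shown for this gene because of the size of its differences, lies at chr6:90462326-90462625 on the plus strand. It holds 3 E-boxes, 2 TGACG motifs, 1 CCAAT and 1 GC box, and an E-box overlaps a TGACG motif near the start.
Klf15: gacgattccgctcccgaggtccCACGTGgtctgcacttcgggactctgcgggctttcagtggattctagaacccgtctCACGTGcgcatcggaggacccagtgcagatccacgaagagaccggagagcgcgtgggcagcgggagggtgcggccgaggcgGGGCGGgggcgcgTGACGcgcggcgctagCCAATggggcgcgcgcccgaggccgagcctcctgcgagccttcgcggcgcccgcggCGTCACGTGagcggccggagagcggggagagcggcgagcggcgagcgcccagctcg

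**Figure D2:**
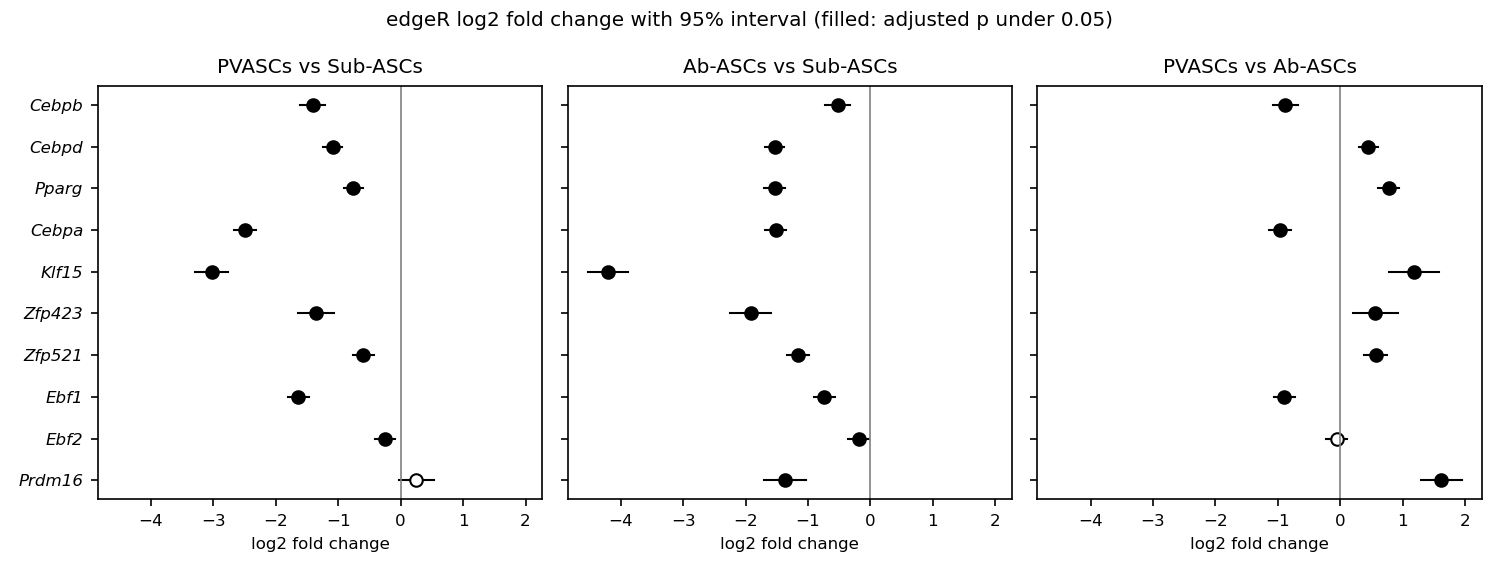
Log2 fold change of each member (x axis) by edgeR in PVASCs against Sub-ASCs, Ab-ASCs against Sub-ASCs and PVASCs against Ab-ASCs, with 95% intervals as bars, filled points for an adjusted p under 0.05 and a line at 0. Klf15 lies farthest from 0 against Sub-ASCs (-4.21 and -3.03), and the open points are Prdm16 in PVASCs against Sub-ASCs (0.25) and Ebf2 in PVASCs against Ab-ASCs (-0.06).

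Zfp423, a zinc finger factor of preadipocyte commitment, and Zfp521, the related factor that opposes it, had the same order of groups. Zfp423 CPM was 7.90, 6.92 and 7.05 in Sub-ASCs, 2.09, 1.87 and 1.83 in Ab-ASCs and 2.78, 3.32 and 2.42 in PVASCs. Ab-ASCs were lowest, with 39 to 42 reads per library. The gene was 3.78-fold lower in Ab-ASCs than in Sub-ASCs (log2 fold change -1.92, SE 0.151, adjusted p = 1.56e-07), 2.57-fold lower in PVASCs than in Sub-ASCs (-1.36, SE 0.133, adjusted p = 1.4e-06) and 1.47-fold higher in PVASCs than in Ab-ASCs (0.56, SE 0.165, adjusted p = 0.0122). Zfp521 CPM was 40.8, 45.6 and 40.6 in Sub-ASCs, 17.4, 18.1 and 21.1 in Ab-ASCs and 28.9, 27.1 and 27.8 in PVASCs, again without overlap. It was 2.24-fold lower in Ab-ASCs (-1.16, SE 0.0823, adjusted p = 5.62e-08) and 1.51-fold lower in PVASCs (-0.60, SE 0.0783, adjusted p = 2.05e-05) than in Sub-ASCs. PVASCs exceeded Ab-ASCs by 1.48-fold (0.56, SE 0.0826, adjusted p = 0.000116), close to the value of Zfp423.

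Ebf1, an early B cell factor that also drives fat cell formation, fell in steps like Cebpb. Ebf1 CPM was 121, 136 and 117 in Sub-ASCs, 68.0, 81.7 and 74.0 in Ab-ASCs and 40.3, 38.9 and 41.2 in PVASCs. PVASCs were lowest with the least spread. The gene was 3.11-fold lower in PVASCs than in Sub-ASCs (log2 fold change -1.64, SE 0.0787, adjusted p = 1.35e-09), 1.86-fold lower than in Ab-ASCs (-0.89, SE 0.0786, adjusted p = 1.55e-06) and 1.67-fold lower in Ab-ASCs than in Sub-ASCs (-0.74, SE 0.077, adjusted p = 2.18e-06).

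Ebf2, the paralog that marks brown fat precursors, moved least. Ebf2 CPM was 30.7, 34.8 and 30.9 in Sub-ASCs, 26.4, 29.6 and 28.4 in Ab-ASCs and 28.6, 26.3 and 26.2 in PVASCs, with PVASC and Ab-ASC libraries intermingled. It was 1.19-fold lower in PVASCs (log2 fold change -0.25, adjusted p = 0.0098) and 1.14-fold lower in Ab-ASCs (-0.19, adjusted p = 0.0369) than in Sub-ASCs. PVASCs and Ab-ASCs differed by -0.06 (95% interval -0.22 to 0.11, adjusted p = 0.534), which leaves differences of that size in either direction possible. Both calls against Sub-ASCs depended on single libraries. Without Sub-ASC replicate 2, the log2 fold changes were -0.18 for PVASCs (adjusted p = 0.0555) and -0.12 for Ab-ASCs (adjusted p = 0.181). The PVASC call was also lost without PVASC replicate 2 (-0.22, adjusted p = 0.0512) or 3 (-0.21, adjusted p = 0.0546). The Ab-ASC call was lost without Ab-ASC replicate 1 (-0.14, adjusted p = 0.0906) or 3 (-0.19, adjusted p = 0.0778) and, at -0.18 each time, without PVASC replicate 1 (adjusted p = 0.0552), 2 (adjusted p = 0.0658) or 3 (adjusted p = 0.0657).

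Prdm16, a coregulator that directs cells to the brown fat lineage, was the member with its highest mean in PVASCs. Prdm16 CPM was 8.07, 6.21 and 9.27 in Sub-ASCs, 2.95, 3.11 and 3.03 in Ab-ASCs and 9.48, 9.76 and 8.78 in PVASCs. The ranges of PVASCs and Sub-ASCs overlapped, and Ab-ASCs lay below both. PVASCs exceeded Ab-ASCs by 3.07-fold (log2 fold change 1.62, 95% interval 1.29 to 1.95, adjusted p = 2.39e-06), and Ab-ASCs were 2.58-fold lower than Sub-ASCs (-1.37, SE 0.154, adjusted p = 4.71e-06). The difference between PVASCs and Sub-ASCs was 0.25, with an interval from -0.03 to 0.53 and an adjusted p of 0.101. Without Sub-ASC replicate 3, the library with the highest value of its group, it was 0.39 with an adjusted p of 0.0194, and without Sub-ASC replicate 2, the lowest of that group, it was 0.11 with an adjusted p of 0.39. The Prdm16 promoter at chr4:154636824-154637123 on the minus strand holds 1 CCAAT and 1 GC box. It is shown because Prdm16 alone among the members did not have its highest mean in Sub-ASCs.
Prdm16: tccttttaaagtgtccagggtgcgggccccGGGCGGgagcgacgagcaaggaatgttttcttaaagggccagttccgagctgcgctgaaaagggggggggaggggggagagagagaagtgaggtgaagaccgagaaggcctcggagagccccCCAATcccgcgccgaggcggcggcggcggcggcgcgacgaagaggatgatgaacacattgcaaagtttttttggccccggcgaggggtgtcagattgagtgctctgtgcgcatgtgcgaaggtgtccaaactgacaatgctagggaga

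Levels of different members were compared per length, as FPKM (reads relative to gene length and to all counted reads), within each group. In Sub-ASCs the mean FPKM fell from Cebpb at 169 through Cebpd at 63.7, Cebpa at 43.1, Pparg at 13.9, Ebf1 at 12.5, Zfp521 at 6.73, Klf15 at 6.55, Ebf2 at 4.54 and Zfp423 at 1.27 to Prdm16 at 0.824. The neighbours Pparg and Ebf1, and Zfp521 and Klf15, overlapped between libraries there. Ab-ASCs kept Cebpb (112), Cebpd (21) and Cebpa (14.3) at the top, with Ebf1 (7.15) ahead of Pparg (4.60), then Ebf2 at 3.79 and Zfp521 at 2.87. Their lowest members, Klf15 at 0.333, Zfp423 at 0.321 and Prdm16 at 0.304, overlapped. PVASCs had Pparg (9.19) and Cebpa (8.56) overlapping behind Cebpb (71.3) and Cebpd (33.4), then Zfp521 at 4.96, Ebf1 at 4.49 and Ebf2 at 4.26, of which the last 2 overlapped. Prdm16 at 1.09, Klf15 at 0.892 and Zfp423 at 0.553 came last in PVASCs, without overlap between neighbours.

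Ratios of FPKM between members of the same library do not depend on how libraries are scaled to each other, and 5 of them were tested among the groups by an exact permutation test over all 1680 assignments of the 9 libraries, with a smallest possible p of 0.00357 and adjustment over the 5 ratios. Ebf2 to Ebf1 was 0.363 ± 0.00713 in Sub-ASCs, 0.532 ± 0.0193 in Ab-ASCs and 0.949 ± 0.053 in PVASCs (SD, n = 3; exact permutation adjusted p = 0.0179), with no overlap between groups. Pparg to Cebpa was 0.325 ± 0.038 in Sub-ASCs and 0.322 ± 0.0315 in Ab-ASCs, and its PVASC value of 1.08 ± 0.12 stood above both (SD, n = 3; exact permutation adjusted p = 0.0357). Cebpd to Cebpb was lowest in Ab-ASCs, at 0.188 ± 0.0194, against 0.381 ± 0.0669 in Sub-ASCs and 0.471 ± 0.0268 in PVASCs (SD, n = 3; exact permutation adjusted p = 0.0179). The Sub-ASC and PVASC libraries of that ratio overlapped, at 0.319 to 0.452 and 0.44 to 0.488. Cebpa to Cebpb was 0.258 ± 0.0435 in Sub-ASCs, 0.128 ± 0.00412 in Ab-ASCs and 0.121 ± 0.0132 in PVASCs (SD, n = 3; exact permutation adjusted p = 0.0238). Zfp423 to Zfp521 was 0.19 ± 0.023, 0.113 ± 0.0182 and 0.112 ± 0.0202 in the same order (SD, n = 3; exact permutation adjusted p = 0.0357), and without Sub-ASC replicate 1 its adjusted p by exact permutation was 0.0643.

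**Figure D3:**
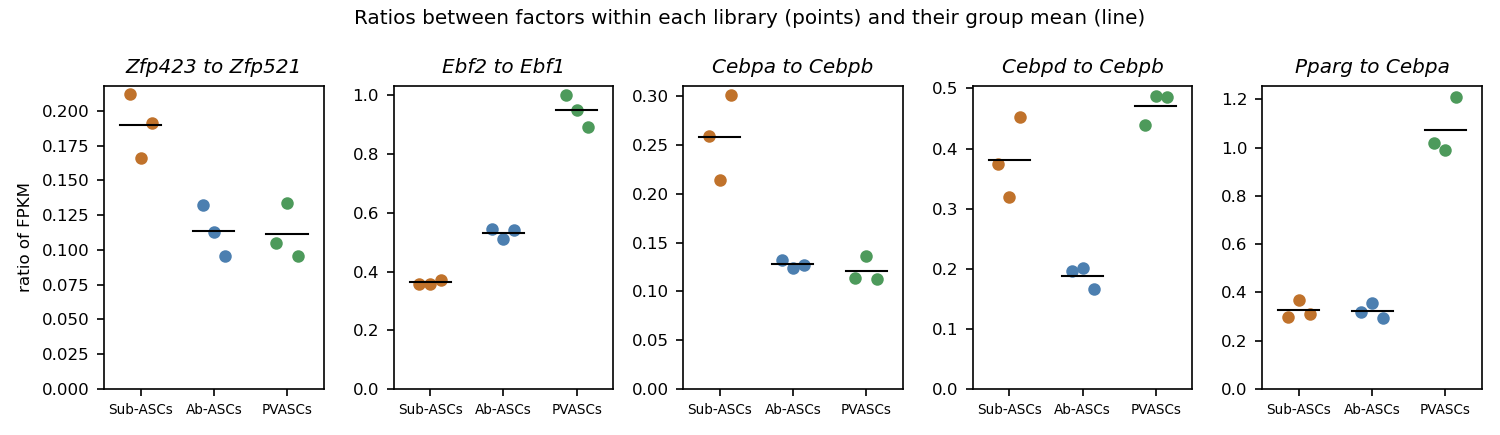
Ratio of FPKM of 5 pairs of members within each library (y axes, from 0) in Sub-ASCs, Ab-ASCs and PVASCs (x axis), with a point per library and a line at the mean of 3 libraries. Ebf2 to Ebf1 and Pparg to Cebpa are highest in PVASCs (0.949 and 1.08), and Cebpd to Cebpb is lowest in Ab-ASCs (0.188).

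Of 15 paralogs and partners of the members, 14 were tested, and Cebpe had at most 2 reads in a library. In PVASCs 10 were lower and 3 higher than in Sub-ASCs (median log2 fold change -0.54), in Ab-ASCs 10 were lower and 2 higher (-0.55), and PVASCs against Ab-ASCs gave 4 higher and 4 lower (-0.08, or -0.05 with Rxrg set at 3 reads per library in PVASCs). Mecom, which encodes the closest relative of PRDM16, had 5.89 ± 0.595 CPM in Sub-ASCs, 1.55 ± 0.37 in Ab-ASCs and 18.0 ± 0.349 in PVASCs (SD, n = 3). It was higher in PVASCs than in Ab-ASCs by a log2 fold change of 3.51 (SE 0.141, adjusted p = 1.26e-09) and than in Sub-ASCs by 1.61 (SE 0.112, adjusted p = 4.88e-08), and was lower in Ab-ASCs than in Sub-ASCs (-1.91, SE 0.157, adjusted p = 2.52e-07). Among the other EBF genes, Ebf3 had 49.0 ± 0.921, 7.64 ± 0.77 and 31.4 ± 2.67 CPM and Ebf4 6.19 ± 0.223, 0.993 ± 0.0906 and 1.76 ± 0.398 in Sub-ASCs, Ab-ASCs and PVASCs. Both passed the test in each comparison, with Ab-ASCs lowest.

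Rxra, which encodes a partner that binds DNA with PPARγ, was lower than in Sub-ASCs (181 ± 5.65 CPM, SD, n = 3) in both Ab-ASCs (77.9 ± 3.5) and PVASCs (72.9 ± 3.14), at log2 fold changes of -1.22 (adjusted p = 1.02e-09) and -1.31 (adjusted p = 4.87e-10). Rxrg was counted with 12 to 28 reads per Sub-ASC library, 0 to 4 in Ab-ASCs and 0 to 2 in PVASCs, and was called lower in both. Rxrb was lower in PVASCs than in Ab-ASCs (-0.33, adjusted p = 0.00155) and Sub-ASCs (-0.24, adjusted p = 0.00836, or -0.20 and 0.0545 without PVASC replicate 3). The other PPAR genes fell as well. Ppara had 3.23, 0.714 and 0.48 CPM and Ppard 76.7, 56.3 and 41.2 CPM in Sub-ASCs, Ab-ASCs and PVASCs, with both lower than in Sub-ASCs in the other groups (adjusted p from 3.17e-08 to 2.14e-05) and Ppard also lower in PVASCs than in Ab-ASCs (-0.45, adjusted p = 5.54e-05).

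Cebpg and Ddit3, whose products pair with C/EBP proteins, were also lower in both groups than in Sub-ASCs. Cebpg had 52.9, 33.6 and 39.1 CPM and Ddit3 32, 24.3 and 18.4 in Sub-ASCs, Ab-ASCs and PVASCs, and Ddit3 was lower in PVASCs than in Ab-ASCs (log2 fold change -0.40, adjusted p = 0.00295). Cebpg was higher in PVASCs than in Ab-ASCs (0.21, adjusted p = 0.0311), a call lost without Ab-ASC replicate 1 (0.13, adjusted p = 0.0779) and without PVASC replicate 1, 2 or 3 (adjusted p = 0.0842, 0.064 and 0.0765). The corepressors Ctbp1 and Ctbp2, which bind PRDM16, were higher than in Sub-ASCs. Ctbp1 rose from 150 CPM in Sub-ASCs to 208 in Ab-ASCs and 198 in PVASCs, and Ctbp2 from 45.4 to 90.7 and 54.2, the latter lower in PVASCs than in Ab-ASCs (-0.74, adjusted p = 2.45e-07). Ehmt1, a methyltransferase partner of PRDM16, differed by -0.19 in Ab-ASCs against Sub-ASCs (adjusted p = 0.0129, or 0.0559 at -0.16 without Sub-ASC replicate 2). Tle3, a cofactor of PPARγ, differed by -0.14 in PVASCs against Sub-ASCs (adjusted p = 0.0423), which did not pass without Sub-ASC replicate 1, 2 or 3, Ab-ASC replicate 3 or PVASC replicate 1, 2 or 3 (adjusted p from 0.0569 to 0.238).

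Other regulators that promote adipogenesis were lower than in Sub-ASCs in 10 of 15 and higher in 3 of 15, both in PVASCs (median log2 fold change -0.71) and in Ab-ASCs (-1.14), and PVASCs against Ab-ASCs had 4 higher and 7 lower (-0.09). Stat5a, a cytokine signalling factor that acts on Pparg, had 88.7 ± 2.92 CPM in Sub-ASCs, 21.4 ± 0.552 in Ab-ASCs and 15.8 ± 0.217 in PVASCs (SD, n = 3). Zfp467, a zinc finger gene, followed at 33.3 ± 1.26, 7.69 ± 0.523 and 5.64 ± 0.58. Each was lower in both groups than in Sub-ASCs (log2 fold changes -2.05 and -2.49 for Stat5a, -2.11 and -2.56 for Zfp467). Egr2 (Krox20) and Klf5, early factors of the cascade, were higher than in Sub-ASCs and highest in Ab-ASCs. Egr2 had 12.3 ± 0.772, 117 ± 2.76 and 36.9 ± 0.637 CPM and Klf5 0.721 ± 0.151, 5.61 ± 1.23 and 3.57 ± 0.164. For Egr2, Ab-ASCs differed from Sub-ASCs by a log2 fold change of 3.25 (SE 0.065, adjusted p = 3.63e-13) and PVASCs from Ab-ASCs by -1.67 (SE 0.058, adjusted p = 4.19e-10).

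Of 15 regulators that restrain adipogenesis, 14 were tested. Against Sub-ASCs, 7 were higher and 1 lower in PVASCs (median log2 fold change 0.32) and 9 higher and 5 lower in Ab-ASCs (0.52), and PVASCs against Ab-ASCs had 5 higher and 3 lower (0.05). Dlk1, which encodes the preadipocyte factor Pref-1, had 0.467 ± 0.00829 CPM in Sub-ASCs, 3.76 ± 0.095 in Ab-ASCs and 25.6 ± 2.13 in PVASCs (SD, n = 3). It was higher in PVASCs than in Ab-ASCs by a log2 fold change of 2.76 (SE 0.098, adjusted p = 4.71e-10) and than in Sub-ASCs by 5.76 (SE 0.135, adjusted p = 1.54e-12). Gata2, a factor that represses Pparg, had 3.36 ± 0.705, 47.2 ± 2.67 and 47.8 ± 1.83 CPM, with both other groups higher than Sub-ASCs (3.82 and 3.84 on the log2 scale). Klf2, another repressor of Pparg, had 18.2, 47.4 and 42.6 CPM. Irf4, an interferon regulatory factor gene, was lower than in Sub-ASCs in both groups, with 5.15 CPM there, 0.211 in Ab-ASCs and 0.0747 in PVASCs, where the latter rests on 0 to 4 reads. Without Ab-ASC replicate 1, Klf7 was also lower in PVASCs than in Sub-ASCs (-0.18, adjusted p = 0.00593), and Klf3 (0.11, adjusted p = 0.0289) and Irf3 (0.16, adjusted p = 0.0411) were also higher, which made 9 higher and 2 lower. Without Sub-ASC replicate 2 there were 7 higher and 3 lower in Ab-ASCs than in Sub-ASCs.

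Adipocyte genes that PPARγ and C/EBPα activate were listed with 21 genes, of which 17 were tested, Lep had 0 reads in all 9 libraries, and Cidec, Pck1 and Retn had at most 8. The list summed to 5380 to 5650 CPM in Sub-ASCs, 1360 to 1400 in Ab-ASCs and 894 to 906 in PVASCs. In PVASCs 17 of 17 were lower than in Sub-ASCs (median log2 fold change -1.60), in Ab-ASCs 16 of 17 were lower and none higher (-1.82), and PVASCs against Ab-ASCs had 5 higher and 6 lower (0.20, or 0.11 with genes of at most 3 reads in a group set at 3). Some calls depended on single libraries. Against Sub-ASCs, Pnpla2 lost its PVASC call without Sub-ASC replicate 1 or 2 or PVASC replicate 2 or 3 (adjusted p from 0.0654 to 0.155). Its Ab-ASC call was lost without Sub-ASC replicate 1 or 2, Ab-ASC replicate 2 or 3 or PVASC replicate 2 (0.0505 to 0.133). Agpat2 lost its Ab-ASC call without Ab-ASC replicate 2 (0.0591), and Angptl4 without Sub-ASC replicate 3 or Ab-ASC replicate 2 or 3 (0.0646 to 0.0776). Dgat2 gained it without Ab-ASC replicate 1 (0.0466). Between PVASCs and Ab-ASCs, with 1 library left out, Acsl1 (0.20, adjusted p = 0.0494 with all) kept its call only without Ab-ASC replicate 1. It lost the call without any other library (adjusted p from 0.0609 to 0.197). Aqp7 did not pass without Ab-ASC replicate 1 or 2 or PVASC replicate 1 or 2 (adjusted p from 0.0626 to 0.11), nor Cd36, among the lower genes, without Ab-ASC replicate 2 or 3 or PVASC replicate 1, 2 or 3 (0.0606 to 0.148). Without Ab-ASC replicate 2, PVASC replicate 1 or PVASC replicate 2, 3 genes were higher in PVASCs. Lpl, the lipoprotein lipase gene, had 3820 ± 157 CPM in Sub-ASCs, 381 ± 50.1 in Ab-ASCs and 109 ± 1.35 in PVASCs (SD, n = 3), and was lower in PVASCs than in Ab-ASCs (-1.80, SE 0.081, adjusted p = 3.41e-09). Plin4, which coats lipid droplets, had 47.1 ± 2.45, 0.835 ± 0.397 and 8.54 ± 0.181 CPM and was higher in PVASCs than in Ab-ASCs (3.32, SE 0.183, adjusted p = 2.23e-08). Plin1, the main perilipin of fat cells, had 410 to 523 reads per library in Sub-ASCs, 1 to 3 in Ab-ASCs and 8 to 10 in PVASCs. Lipe, the hormone-sensitive lipase gene, had 15.1 ± 0.981, 2.69 ± 0.027 and 3.2 ± 0.222 CPM, and PVASCs and Ab-ASCs differed by 0.25 (SE 0.125, adjusted p = 0.105).

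Brown and beige genes were listed with 10 genes because of Ebf2 and Prdm16. Of these, Ucp1, the uncoupling protein gene, had 0 reads in all 9 libraries, and Cidea, Elovl3 and Cox8b had at most 2, 2 and 3 reads. Among the 5 tested, 4 were lower and 1 higher in PVASCs than in Sub-ASCs (median log2 fold change -1.68), 3 lower and 1 higher in Ab-ASCs than in Sub-ASCs (-0.77), and 3 higher and none lower in PVASCs than in Ab-ASCs (0.54). Dio2, the deiodinase that activates thyroid hormone, had 4.0 ± 0.709 CPM in Sub-ASCs, 7.64 ± 0.814 in Ab-ASCs and 34.5 ± 1.09 in PVASCs (SD, n = 3), and was higher in PVASCs than in Ab-ASCs (2.17, SE 0.109, adjusted p = 9.63e-09). Nfia, a brown fat factor that works with PPARγ, had 96.5 ± 6.25, 20.1 ± 2.04 and 29.3 ± 1.96 CPM and was lower in PVASCs (-1.72, adjusted p = 1.26e-09) and Ab-ASCs (-2.26, adjusted p = 1.39e-10) than in Sub-ASCs. Ppargc1a, a coactivator of mitochondrial genes, had 2.19, 0.294 and 0.446 CPM and was lower than in Sub-ASCs in both groups. Cox7a1 had 1.36, 0.788 and 0.416 CPM and passed the test in PVASCs against Sub-ASCs (-1.68, adjusted p = 0.00538).

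**Figure D4:**
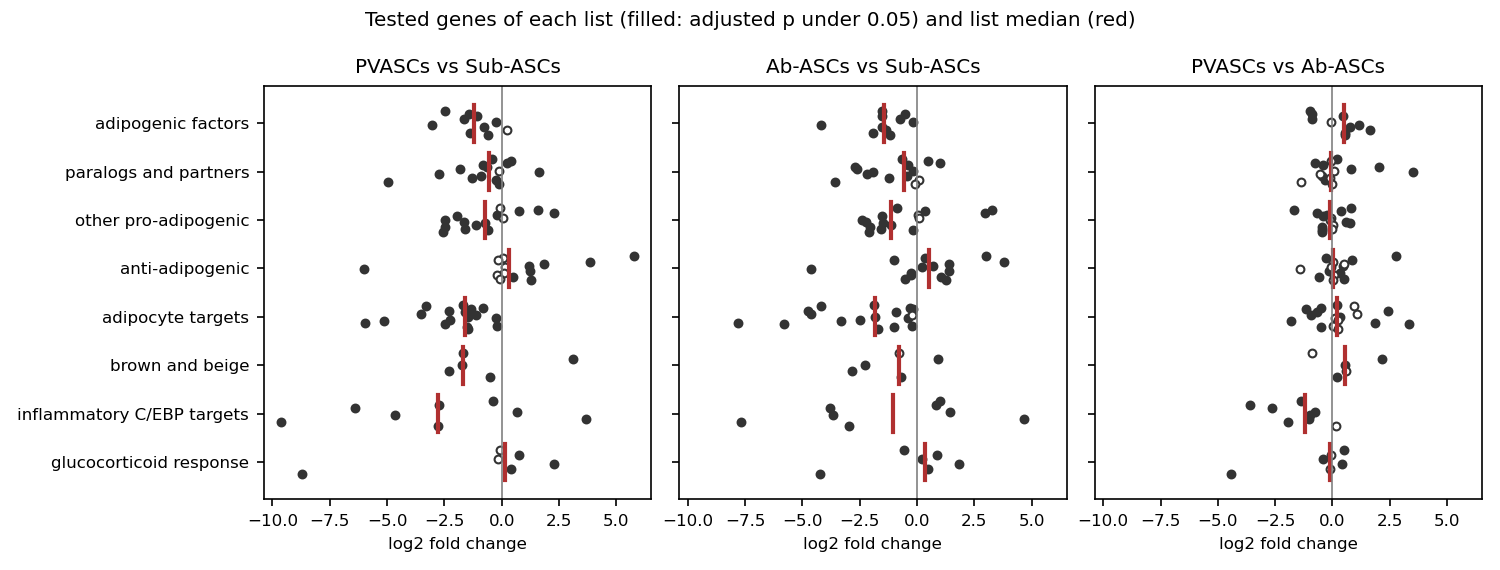
Log2 fold change by edgeR (x axis) of each tested gene in the members and 7 other gene lists (rows), for the 3 comparisons, with filled points for an adjusted p under 0.05, open points for the rest, a red line at each list's median and a grey line at 0. Against Sub-ASCs the medians of the members (-1.22 in PVASCs, -1.45 in Ab-ASCs) and of adipocyte genes (-1.60 and -1.82) lie left of 0 and that of the restraining regulators right of it (0.32 and 0.52).

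Inflammatory genes that C/EBPβ and C/EBPδ also activate split between directions. In PVASCs 6 of 8 were lower and 2 higher than in Sub-ASCs (median log2 fold change -2.76), in Ab-ASCs 4 were lower and 4 higher (-1.05), and PVASCs against Ab-ASCs had 7 lower and none higher (-1.20), or 1 higher, Socs3 (0.19, adjusted p = 0.0106), without Ab-ASC replicate 1. Saa3, an acute phase protein gene, had 10100 ± 1690 CPM in Sub-ASCs, 48.7 ± 3.46 in Ab-ASCs and 12.8 ± 0.144 in PVASCs (SD, n = 3), a log2 fold change of -9.61 for PVASCs against Sub-ASCs (SE 0.144, adjusted p = 4.81e-14). Hp, the haptoglobin gene, had 875 ± 47.9, 63.6 ± 6.41 and 10.3 ± 0.199 CPM and Lcn2, the lipocalin gene, 85.5 ± 5.78, 6.85 ± 1.2 and 3.43 ± 0.129. Saa3, Hp and Lcn2 had the order of Cebpb, with Sub-ASCs highest and PVASCs lowest, and the other genes of the list did not. Ptgs2, the inducible cyclooxygenase gene, had 23.3 ± 2.34, 595 ± 91.5 and 297 ± 3.71 CPM and was higher than in Sub-ASCs in both groups, by 4.67 in Ab-ASCs (SE 0.116, adjusted p = 2.56e-12) and 3.67 in PVASCs (SE 0.112, adjusted p = 1.73e-11).

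Genes that respond to glucocorticoids were read because Klf15 and Cebpd do so too. Of 6, 3 were higher and 1 lower in PVASCs than in Sub-ASCs (median log2 fold change 0.17), 4 higher and 2 lower in Ab-ASCs than in Sub-ASCs (0.36), and PVASCs against Ab-ASCs had 2 higher and 2 lower (-0.08). Fkbp5, a cochaperone of the receptor, had 43.0 ± 1.12 CPM in Sub-ASCs, 78.1 ± 3.38 in Ab-ASCs and 73.7 ± 1.31 in PVASCs (SD, n = 3), and was higher than in Sub-ASCs in both groups (0.86, adjusted p = 2.55e-08, and 0.78, adjusted p = 6.7e-08). Sgk1, a kinase gene, had 77.8 ± 2.6, 279 ± 19.6 and 376 ± 6.9 CPM in the same order. Zbtb16, a zinc finger factor gene, went the other way, with 250 to 290 reads per library in Sub-ASCs, 6 to 16 in Ab-ASCs and 0 to 2 in PVASCs. Dusp1, a phosphatase gene, had 85.9 ± 2.88, 58.7 ± 5.66 and 82.3 ± 3.78 CPM, lower in Ab-ASCs than in either other group (-0.55 against Sub-ASCs, adjusted p = 1.91e-05). Zbtb16 thus had the direction of Klf15 and Cebpd against Sub-ASCs, and Fkbp5 and Sgk1 the opposite one. The part of glucocorticoid signalling in the differences of the members was not tested.

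The genes whose pattern lay closest to each member were found among 12523 protein-coding genes with a mean of at least 1 CPM, by the root mean square difference of log2 CPM, centred per gene, over the 9 libraries. The values are descriptive, since the libraries share only 3 groups. Ebf2 had the closest neighbours, Baz1b at a difference of 0.04 and AI597479 at 0.041, both with little change between groups. Cebpa lay closest to Plod1 (0.059), which had 441 CPM in Sub-ASCs, 155 in Ab-ASCs and 76.1 in PVASCs, and to Ntn1 (0.077). For Cebpd these were Pou6f1 (0.069) and Fbxl20 (0.075), for Zfp521 Gucy1b1 (0.073) and Zfp661 (0.078), and for Zfp423 Psen2 (0.084) and Pir (0.098). Pparg lay closest to Ppp3ca (0.088) and Pctp (0.091), and Cebpb to Twist1 (0.088) and Arhgap10 (0.092), of which Twist1 had 89.3, 65.5 and 34.4 CPM. Ebf1 was nearest to Slit3 (0.099) and Fam78b (0.102), and Klf15 to Tifa (0.113) and Irx5 (0.119). Prdm16 had the most distant neighbours, Sigirr at 0.139 and Maml3 at 0.165. Among the members themselves, the closest pairs were Ebf1 and Cebpb at 0.16, Zfp423 and Cebpd at 0.161, Cebpd and Pparg at 0.17, and Zfp521 and Pparg at 0.178.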

How the data were processed

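Bulk RNA of 3 Sub-ASC, 3 Ab-ASC and 3 PVASC libraries was analysed, with groups taken from the tissue and title given per the labels. The authors deposited raw read counts per gene, with gene length, position and biotype, and all 9 sample columns were used. The submitters' processing notes name CASAVA 1.8, Bowtie 0.12.2, featureCounts 1.5.0-p3 and the builds mm8 and mm10, without roles. Strandedness is not given in the sources used here. For 53462 of 54532 genes (98.0%) and 9 of 10 members, positions were those of GENCODE M21 on GRCm38, and the end of Zfp521 differed.

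Counts were tested by edgeR 4.0.16 (limma 3.58.1, R 4.3.3) with filterByExpr, TMM scaling and all 9 libraries in a single quasi-likelihood fit without covariates. P-values were adjusted over the 16526 tested genes by Benjamini-Hochberg, with a threshold of 0.05. Errors of fold changes are standard errors, and those of means are SDs. FPKM was computed from counts, gene length and library totals. The procedure was checked on simulated data. At most 3 reads per library were taken as the floor, which covers counting error only. Tables and figures were made with Python 3.11.15, pandas 2.3.3, scipy 1.17.1 and matplotlib 3.10.9.

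The members and gene lists were chosen with earlier results of these data known. Named were all members, each called paralog or partner, at most 4 genes per list by the range of group means of log2 CPM (for cell type and state markers, list sums are given instead), listed genes with at most 3 reads in each library, and the 2 nearest patterns per member. Alternatives were DESeq2 1.42.0, RLE size factors, no filter on low counts, a minimum of 10 reads per library, fitting only the groups compared, a replicate block, a log2 fold change of at least 1, leaving out each library, FPKM plus 0.1 for ratios, TPM or TMM-scaled FPKM for orders, and a mean of 10 CPM for patterns.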

Additional observations from a re-analysis of the deposited data

How the results depend on the processing

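Of 450 log2 fold changes of members recomputed under 15 settings, 437 kept their direction and their side of the threshold, 11 lost significance, 1 gained it and 1 changed sign. Ebf2 accounted for 12 of these changes and Prdm16 for 1, and no other member changed. With only the groups compared in the fit, Ebf2 in PVASCs against Ab-ASCs was 0.018 (adjusted p = 0.861), and in Ab-ASCs against Sub-ASCs -0.20 (adjusted p = 0.0589). With no low-count filter the latter was -0.18 (adjusted p = 0.0974). The cause was not tested. Requiring a log2 fold change of at least 1 left 2 members for PVASCs against Ab-ASCs. Leaving out each library gave 8 to 10 members for PVASCs against Sub-ASCs, 9 for PVASCs against Ab-ASCs, 9 to 10 for Ab-ASCs against Sub-ASCs and 9 to 10 among the groups. In the same order, the main fit called 9, 9, 10 and 10 members and 70.4%, 56.9%, 75.3% and 84.6% of all tested genes. Leaving out a library moved the exact permutation adjusted p of Zfp423 to Zfp521 to between 0.0223 and 0.0643, while the other ratios stayed at or below 0.0393. TPM and TMM-scaled FPKM rescale whole libraries and so cannot change the order of members within a library. With a mean of 10 CPM, 15 of the 20 nearest patterns were shared. Deviations of same-numbered libraries from their groups had correlations from -0.0405 to 0.0723, and those of other pairs from -0.0909 to 0.0828. Between PVASCs and Sub-ASCs, same-numbered pairs were all positive (0.0222 to 0.032) and the others all negative (-0.0274 to -0.00112). With 3 libraries per group, such values cannot show whether the numbers pair the libraries. With a replicate block, 9, 9 and 10 members were called in the 3 comparisons and 10 among the groups, the same numbers as in the main fit. At these depths the least counted member, Klf15 in Ab-ASCs, rested on 14 to 28 reads.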
